A study of Mus musculus with 18 samples.

Results

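Toll-like receptor genes and co-factors were followed in demyelinating white matter with and without Trem2. The members are the surface receptor genes Tlr1, Tlr2, Tlr4 and Tlr6, the endosomal receptor genes Tlr3, Tlr7, Tlr9 and Tlr13, the co-receptor gene Cd14 and the adaptor gene Myd88. They were chosen by name and not by a filter on their values, though earlier results of these data were known. Every probe set annotated to exactly 1 of these symbols was taken, and their median log2 value stands for the gene in each array. These are 10 of 20406 genes on the array, and 9 of them lay above the level of 3.41 at which the dimmest 20% of genes were left out of the tests. Tlr6, with a mean of 3.14 over all arrays, did not. The tissue was the caudal part of the corpus callosum, the tract of myelinated fibres that joins the hemispheres, from C57BL/6 mice, with 1 array per sample. The groups are Trem2 knockout (KO, TREM2-/-) at the stage of 6 weeks with 3 arrays, wild type (WT) at 6 weeks with 4 arrays, KO at 12 weeks with 6 arrays and WT at 12 weeks with 5 arrays. Mice of every group had been fed 0.2% cuprizone (CPZ), which binds copper, is toxic to oligodendrocytes and demyelinates white matter, so no group stands for unfed white matter. The labels leave unclear whether the stage counts weeks of CPZ feeding or weeks of age. Whether each array stands for its own mouse is not stated either, and the p-values below therefore reflect the spread of these samples, part of which may be technical.

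Toll-like receptors are pattern recognition receptors of the innate immune system. Those at the cell surface bind lipids, lipopeptides and proteins of microbes, and also products of damaged tissue, whereas those in endosomes bind nucleic acids taken up by the cell. After binding a ligand most of them recruit MYD88, which assembles a complex of IRAK kinases and TRAF6 and turns on NF-kB and the kinases of AP-1. TLR3 instead signals through the adaptor TICAM1 (TRIF), and TLR4 uses both. In brain and spinal cord these receptors are found mostly on microglia, the resident macrophages, and some of them also on astrocytes, oligodendrocytes and neurons. TREM2 is a surface receptor of myeloid cells that signals through the adaptor TYROBP and is known, from cell culture, to alter the response of macrophages to Toll-like receptor ligands.

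Trem2 itself was lower in KO in every array. It differed by −1.49 ± 0.36 (log2, SE) at 6 weeks and by −2.09 ± 0.28 at 12 weeks, with adjusted p-values of 0.248 and 0.00252 (limma across all genes, Benjamini-Hochberg adjustment). Genes of myeloid cells were measured well above the filter level in all groups, and genes that define T and B lymphocytes or neutrophils lay near or under it in part: of the lists, 6 of 12 lymphocyte genes and 6 of 13 neutrophil genes were bright enough to be tested. A pair of arrays at 6 weeks stood apart from their groups. KO replicate 2 had the lowest array weight of all (0.446) and the highest level of myeloid genes, and WT replicate 4 had the next lowest weight (0.503) and the lowest level of myeloid genes. Genotype differences of members at 6 weeks are given below with and without them where they moved. Those of the marker and pathway lists are given only with both arrays in the fit, so how far they rest on these arrays is not shown. Leaving out both removes the highest KO and the lowest WT level, which lowers the difference of genes that follow the myeloid genes. WT replicate 3, with the highest level of myeloid genes among the WT arrays, was kept in those fits. The direction of that shift was thus set by the choice of arrays.

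The promoters of Tlr13 and Myd88 are shown because Tlr13 differed most between the genotypes and Myd88 most between the stages. Each line holds the 250 bases before the gene's start site, read 5′ to 3′ on the gene's strand, from RefSeq (build GRCm38.p6), and capitals mark a match to a searched motif. The Tlr13 window is chrX:106143025-106143274 on the plus strand, and the Myd88 window is chr9:119340019-119340268 on the minus strand.
Tlr13: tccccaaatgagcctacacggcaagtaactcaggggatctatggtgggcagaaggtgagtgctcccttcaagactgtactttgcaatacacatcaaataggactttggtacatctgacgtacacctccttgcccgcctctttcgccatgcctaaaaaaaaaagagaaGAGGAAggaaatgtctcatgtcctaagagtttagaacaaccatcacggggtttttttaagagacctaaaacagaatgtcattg
Myd88: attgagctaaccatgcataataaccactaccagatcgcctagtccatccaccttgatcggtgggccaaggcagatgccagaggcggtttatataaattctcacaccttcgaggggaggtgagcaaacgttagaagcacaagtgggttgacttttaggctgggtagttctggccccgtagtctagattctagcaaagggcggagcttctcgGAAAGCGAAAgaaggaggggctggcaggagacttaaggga
The capitals in Tlr13 are GAGGAA, the core bound by the myeloid factor PU.1 and other ETS proteins, from 83 to 78 bases before the start. Those in Myd88 are GAAAGCGAAA, a match to the interferon response element (GAAA, any 2 bases, GAAA), from 40 to 31 bases before the start. Among 32851 promoter windows of this length, searched on both strands, 23.3% held GAGGAA and 2.98% held the interferon response element. Motifs of NF-kB (GGGA, any 4 bases, CC, in 17.6% of windows), AP-1 (TGANTCA, in 6.75%) and the longer PU.1 motif GAGGAAGT (in 2.44%), which contains GAGGAA, were searched as well. The NF-kB motif was matched in the windows of Tlr2 and Tlr3, TGANTCA and GAGGAA in that of Tlr9, the interferon response element in that of Tlr6 and GAGGAAGT in that of Tlr1. The promoter table held 7 of the 10 members, and Tlr4, Tlr7 and Cd14 were not among them. A match describes the letters and is not evidence of binding.

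The comparison of KO with WT at each stage asks how loss of TREM2 alters these transcripts in CPZ-exposed white matter. The endosomal receptor genes Tlr13, Tlr7 and Tlr3 had the largest differences at 12 weeks, all toward higher values in KO, while Tlr2, Tlr1, Tlr9 and Cd14 had differences of 0.20 or less in size at that stage. Of the 9 members tested, 7 had a higher mean in KO at 6 weeks and 8 at 12 weeks, where 49.6% and 52.4% of all 16324 genes tested did. The median log2 difference over the members was 0.58 at 6 weeks and 0.50 at 12 weeks, against 0.00 and 0.02 over all genes. None of the members passed an adjusted p of 0.05 in either comparison, in which 0.0429% and 0.441% of all genes passed (limma). By unadjusted p under 0.05 there were 1 of 9 members at 6 weeks (Tlr13), where 5.44% of all genes lay under it, and 3 of 9 at 12 weeks (Tlr13, Tlr3 and Tlr7), where 11.1% did. The median at 6 weeks depended on the arrays that stood apart, at 0.07 without KO replicate 2 and −0.08 without both of them.

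**Figure D1:**
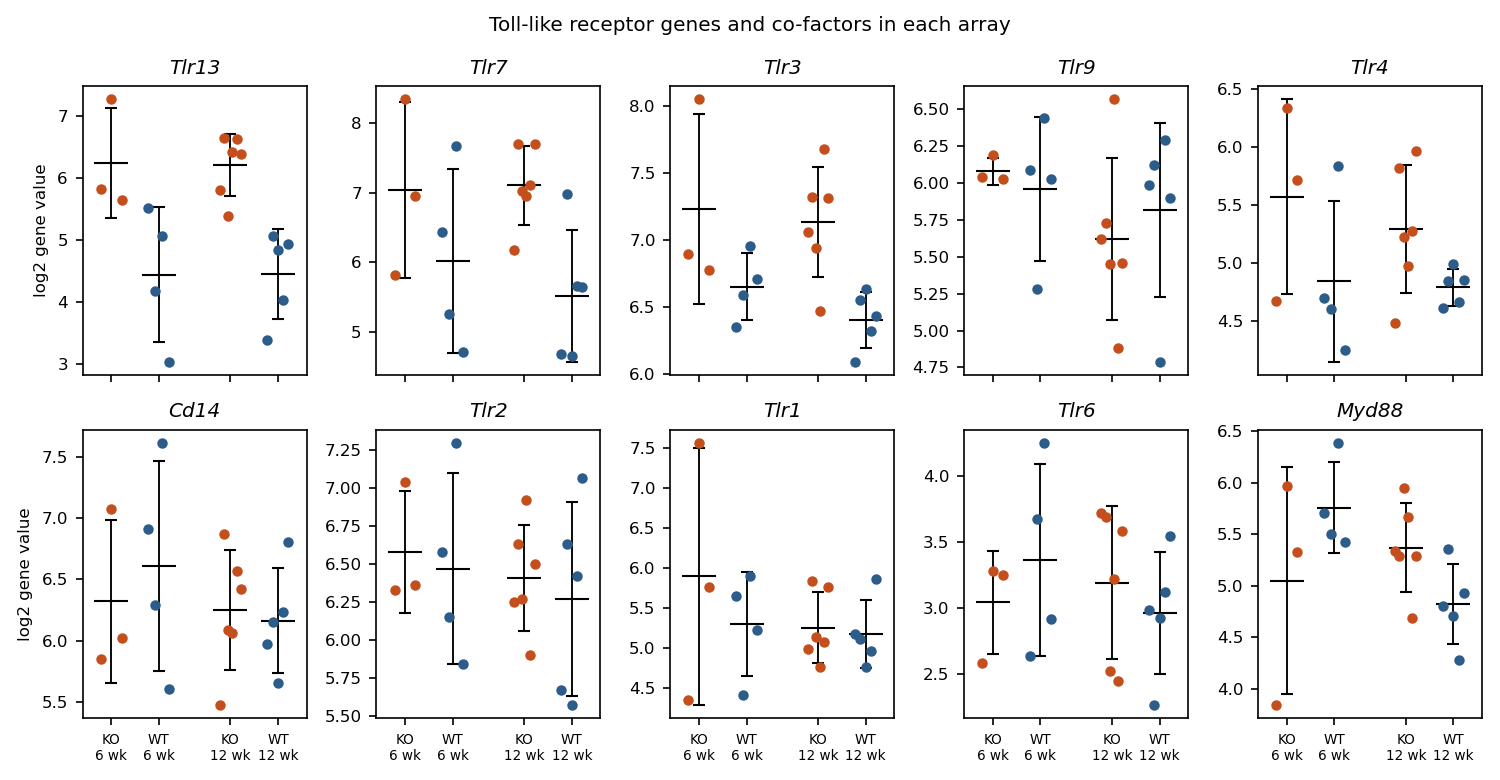
Log2 value of each member (panels) in each array (points), with KO left of WT at 6 and at 12 weeks; black bars are the mean and SD over the 3, 4, 6 and 5 arrays of the groups in that order, and each panel has its own y axis. All KO points lie above all WT points at both stages for Tlr13 and for no other member.

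**Figure D2:**
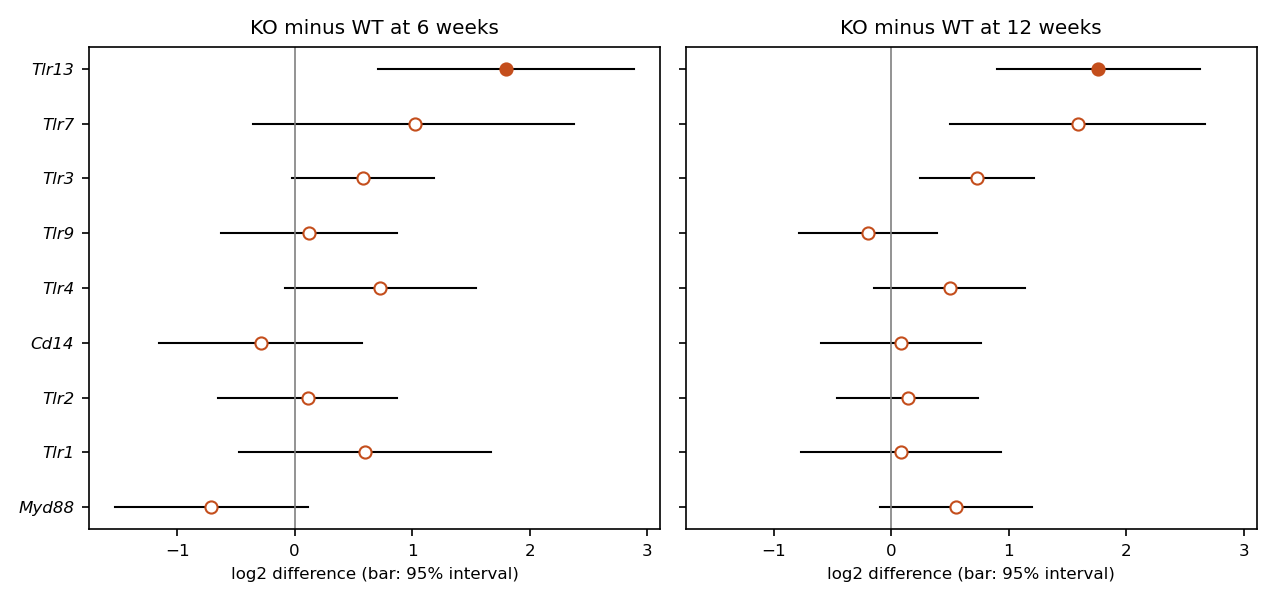
Log2 difference of KO from WT for the 9 members tested, at 6 weeks (left) and 12 weeks (right), with bars for the 95% interval from the limma fit; filled points mark members whose groups do not overlap. Only Tlr13 is filled, and its interval lies above 0 at both stages, as do those of Tlr7 and Tlr3 at 12 weeks.

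Tlr13 encodes an endosomal receptor for bacterial ribosomal RNA that mice have and humans lack. At 6 weeks Tlr13 had log2 values of 5.82, 7.27 and 5.64 in KO arrays, against 5.51, 4.17, 5.06 and 3.04 in WT arrays. At 12 weeks the KO arrays ran from 5.39 to 6.65 with a median of 6.40, against 3.39, 5.07, 4.83, 4.03 and 4.93 in WT arrays. Every KO array lay above every WT array of the same stage. Groups separated in that direction for 2.72% of all genes tested at 6 weeks and for 1.7% at 12 weeks. Tlr13 was higher in KO by 1.80 ± 0.52 (log2, SE; 3.48-fold) at 6 weeks and by 1.76 ± 0.41 (3.39-fold) at 12 weeks, with limma adjusted p-values of 0.547 and 0.0672. The order of the group means was KO at 6 weeks (6.24 ± 0.89, SD, n = 3), KO at 12 weeks (6.21 ± 0.50, n = 6), WT at 12 weeks (4.45 ± 0.72, n = 5) and WT at 6 weeks (4.44 ± 1.09, n = 4). Within a genotype the stages differed by far less than the spread between arrays. The difference at 12 weeks passed in some other fits: the adjusted p was 0.0172 with array weights, 0.0323 with the mean of the probe sets as the gene value, 0.00767 without the 2 arrays that stood apart, 0.00866 in a fit of the 2 groups of 12 weeks alone, and 0.0223 and 0.0336 without WT replicate 4 and KO replicate 2 of 6 weeks. Leaving out arrays of 6 weeks kept the difference at 1.76 and altered the estimate of spread. The difference did not pass with the replicate numbers as a block (limma adjusted p = 0.153) or with a myeloid score, described below, as a covariate (0.622). Of 18 fits that each left out 1 array, 2 passed, with adjusted p from 0.0223 to 0.198. Averaged over both stages, a contrast chosen after the data were seen, Tlr13 was higher in KO by 1.78 ± 0.33 (3.44-fold; limma adjusted p = 0.0123), and 1 of 9 members passed where 0.674% of all genes did. By unadjusted p under 0.05, 4 of 9 members were counted in that contrast (Tlr13, Tlr3, Tlr7 and Tlr4), where 9.15% of all genes were. The call of Tlr13 was lost without KO replicate 2 of 6 weeks (1.52, adjusted p = 0.0644) and without both arrays that stood apart (1.29, adjusted p = 0.0559). At 6 weeks the difference without both of them was 0.82.

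Tlr7 encodes an endosomal receptor for single-stranded RNA. At 6 weeks its values were 5.81, 8.35 and 6.95 in KO arrays, against 6.43, 5.26, 7.68 and 4.71 in WT arrays, so the groups overlapped across most of their range. At 12 weeks the KO arrays ran from 6.17 to 7.70 with a median of 7.07, against 4.68, 6.98, 4.65, 5.66 and 5.65 in WT arrays. There, 1 WT array reached into the KO range and the other 4 lay below it. Tlr7 differed by 1.02 ± 0.65 at 6 weeks (adjusted p = 0.999) and by 1.59 ± 0.52 at 12 weeks (3-fold; adjusted p = 0.233, limma). In the fit of the 2 groups of 12 weeks alone the adjusted p was 0.0485, and with the brightest probe set as the gene value the difference at 12 weeks was 0.53. At 6 weeks the difference was 0.36 without KO replicate 2, 1.63 without KO replicate 1 and −0.08 without both arrays that stood apart.

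Tlr3 encodes the endosomal receptor for RNA of paired strands and is expressed by astrocytes as well as microglia. Its values at 6 weeks were 6.89, 8.05 and 6.77 in KO arrays, against 6.35, 6.59, 6.95 and 6.71 in WT arrays. At 12 weeks KO arrays ran from 6.47 to 7.68 with a median of 7.19, against 6.09, 6.55, 6.63, 6.32 and 6.43 in WT arrays. At the later stage 5 of the 6 KO arrays lay above all WT arrays. The differences were 0.58 ± 0.29 (adjusted p = 0.94) and 0.73 ± 0.23 (1.66-fold; adjusted p = 0.22, limma). Without KO replicate 2 of 6 weeks the difference at that stage was 0.18, and without both arrays that stood apart it was 0.20.

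Tlr9, whose product binds unmethylated CpG DNA in endosomes, did not pass at either stage. It averaged 6.08 ± 0.09 in KO and 5.96 ± 0.49 in WT at 6 weeks, and 5.62 ± 0.55 in KO and 5.82 ± 0.59 in WT at 12 weeks (SD). The 95% intervals of the differences, from −0.63 to 0.87 and from −0.79 to 0.39, leave room for a change of nearly 1 log2 unit at either stage. Without WT replicate 3 of 12 weeks, whose value of 4.79 was the lowest of its group, the difference at 12 weeks was −0.46, against −0.20 with it. Of the endosomal receptor genes outside the list, Tlr12 was tested and did not pass (0.04 and −0.24), and Tlr8 and Tlr11 lay under the filter level.

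Among the surface receptors, Tlr4, the receptor of bacterial lipopolysaccharide, had the largest differences, and none passed. Its values at 6 weeks were 4.67, 6.33 and 5.71 in KO arrays, against 4.70, 4.60, 5.83 and 4.25 in WT arrays. At 12 weeks KO arrays ran from 4.48 to 5.96 with a median of 5.24, against 4.61, 4.84, 4.99, 4.66 and 4.85 in WT arrays. The WT arrays of 12 weeks lay close together and the KO arrays spread on both sides of them. Tlr4 differed by 0.73 ± 0.39 at 6 weeks (adjusted p = 0.94) and by 0.50 ± 0.31 at 12 weeks (adjusted p = 0.573, limma). At 6 weeks the difference was 0.35 without KO replicate 2, 1.18 without KO replicate 1 and 0.15 without both arrays that stood apart.

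Cd14, the co-receptor that hands lipopolysaccharide to TLR4 and also serves other receptors of the family, did not pass either. Its values at 6 weeks were 5.85, 7.08 and 6.02 in KO arrays, against 6.91, 6.29, 7.62 and 5.60 in WT arrays. At 12 weeks KO arrays ran from 5.47 to 6.87 with a median of 6.25, against 5.97, 6.15, 5.65, 6.23 and 6.81 in WT arrays. At 6 weeks all KO arrays lay within the range of the WT arrays, and at 12 weeks all WT arrays lay within that of the KO arrays. The differences were −0.29 ± 0.41 and 0.08 ± 0.33 (adjusted p = 0.999 and 0.941, limma). At 6 weeks the difference was −0.67 without KO replicate 2, 0.05 without WT replicate 3 and −1.01 without both arrays that stood apart.

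Tlr2 pairs with the products of Tlr1 or Tlr6 to bind lipopeptides. Tlr2 averaged 6.58 ± 0.40 in KO and 6.47 ± 0.63 in WT at 6 weeks, and 6.41 ± 0.35 in KO and 6.27 ± 0.64 in WT at 12 weeks (SD). Its differences of 0.11 ± 0.36 and 0.14 ± 0.29 were smaller than the spread between arrays of either genotype, with 95% intervals from −0.65 to 0.87 and from −0.46 to 0.74. Tlr1 averaged 5.90 ± 1.61 in KO and 5.30 ± 0.65 in WT at 6 weeks. There 1 KO array, replicate 2, was at 7.57 and the other 2 were at 4.35 and 5.77, and without it the difference of 0.60 became −0.24. At 12 weeks Tlr1 averaged 5.26 ± 0.44 in KO and 5.18 ± 0.42 in WT. Tlr6 averaged 3.04 ± 0.39 in KO and 3.36 ± 0.73 in WT at 6 weeks, and 3.19 ± 0.58 in KO and 2.96 ± 0.46 in WT at 12 weeks. At so low a signal the size of its differences is uncertain, and its groups overlapped at both stages. Tlr5, the flagellin receptor, had no probe set annotated to it alone.

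Myd88 was the member whose genotype difference changed most between the stages. Its values at 6 weeks were 3.84, 5.97 and 5.33 in KO arrays, against 5.71, 5.50, 6.39 and 5.43 in WT arrays. At 12 weeks KO arrays ran from 4.69 to 5.95 with a median of 5.31, against 4.80, 5.36, 4.71, 4.28 and 4.93 in WT arrays. KO was lower on average at 6 weeks, by −0.71 ± 0.39 (log2, adjusted p = 0.944), and higher at 12 weeks, by 0.55 ± 0.31 (adjusted p = 0.525, limma), with overlap at both stages. The difference at 6 weeks was −0.11 without KO replicate 1, −1.17 without KO replicate 2 and −1.28 without both arrays that stood apart. The test of that change, the genotype by stage interaction, gave 1.26 ± 0.50 (adjusted p = 0.915, limma). Without KO replicate 1 of 6 weeks, which had the lowest value, the interaction was 0.66, without KO replicate 2 it was 1.73, and with the brightest probe set as the gene value it was 0.12. Among the other 8 members the interaction ran from −0.52 for Tlr1 to 0.57 for Tlr7.

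Between the stages within a genotype Myd88 in WT had the largest difference among the members. The comparison of 12 with 6 weeks in WT gave a median of −0.19 over the 9 members, of which 1 was higher and 8 were lower at 12 weeks, where 51.2% of all genes were higher. None passed (limma), where 0.0184% of all genes did. By unadjusted p under 0.05, 1 of 9 members was counted against 8.48% of all genes. That member was Myd88, lower by −0.94 ± 0.34 at 12 weeks in WT (adjusted p = 0.461, limma), and all 5 WT arrays of 12 weeks lay below all 4 of 6 weeks. Groups separated in that direction for 1.31% of all genes. Of the mature oligodendrocyte and myelin list, all 10 genes tested likewise had lower means at 12 weeks in WT, with a median of −1.75 and 0 passing (limma), and their part in the Myd88 difference was not tested. With the brightest probe set as the gene value this difference was 0.21. In KO the median over the members was −0.10, with 2 members higher and 7 lower at 12 weeks, where 52.2% of all genes were higher. There 0 members passed or had an unadjusted p under 0.05, where 0.00613% and 7.5% of all genes did (limma). No member and no other gene passed for the interaction, where 1 of 9 members and 5.2% of all genes had an unadjusted p under 0.05. These comparisons share their arrays with the genotype comparisons.

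The probe sets of a gene lie along its transcript, and their spread shows how far a gene value rests on the rule that joins them. All 4 probe sets of Tlr13 were higher in KO at both stages, with log2 differences from 1.66 to 2.21 at 6 weeks and from 0.63 to 2.28 at 12 weeks. All 6 of Tlr7 were higher in KO as well, from 0.52 to 1.41 at 6 weeks and from 0.22 to 2.22 at 12 weeks, and so were all 8 of Tlr4, from 0.23 to 1.74 and from 0.01 to 1.80. Tlr3 had 10 probe sets. All of them were higher in KO at 6 weeks and 8 at 12 weeks, with differences from −0.83 to 1.06 at the later stage. The 7 probe sets of Myd88 did not move as one at 6 weeks, when 3 were higher and 4 lower in KO (from −0.82 to 0.45), whereas all 7 were higher at 12 weeks (from 0.16 to 1.88). The 5 of Tlr2 ran from −0.44 to 0.61 at 6 weeks, and the 3 of Cd14 from 0.06 to 0.08 at 12 weeks.

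**Figure D3:**
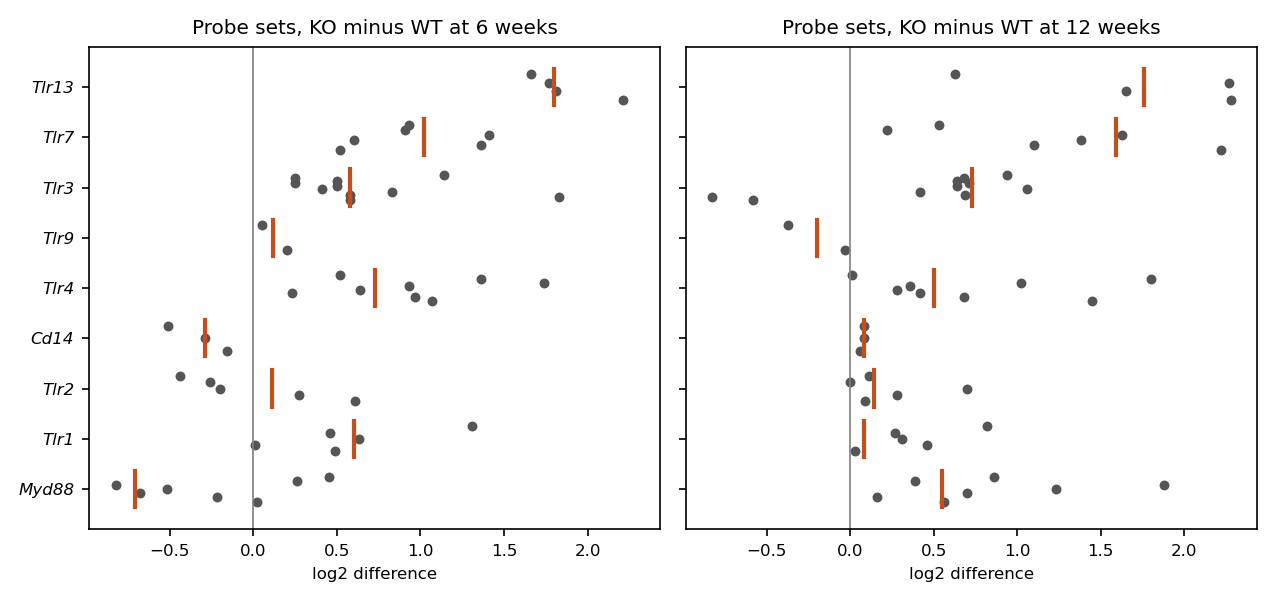
Log2 difference of KO from WT for each probe set (grey points) of the 9 members tested, at 6 weeks (left) and 12 weeks (right); orange bars are the gene's own difference, from the median of its probe sets in each array. All points of Tlr13, Tlr7 and Tlr4 lie above 0 at both stages, and those of Myd88 lie on both sides of 0 at 6 weeks.

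Tlr7 and Tlr13 lie on the X chromosome, so their differences were also taken within each sex, which was read from the arrays. The groups held 2 males and 1 female for KO and 2 of each for WT at 6 weeks, and 3 of each for KO and 3 males and 2 females for WT at 12 weeks. Tlr13 was higher in KO by 1.71 in males and 1.59 in females at 6 weeks, and by 1.35 in males and 2.24 in females at 12 weeks. Tlr7 was higher in KO by 1.23 and 0.76, and by 1.65 and 1.42, in males and females in the same order of stages. Tlr3 differed by 1.00 in males and −0.06 in females at 6 weeks, and by 0.65 and 0.83 at 12 weeks. These within-sex values rest on 1 to 3 arrays a group and were not tested.

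In bulk tissue, more cells of a type and more RNA per cell cannot be told apart, so the members were set beside genes that myeloid cells express in common. Of 20 such genes 18 were tested. Their median log2 difference was 0.95 at 6 weeks, with 17 higher in KO and 0 passing, and 0.98 at 12 weeks, with 16 higher and 2 passing, the integrin gene Itgam (1.76) and Laptm5 (1.54), a lysosomal membrane protein of blood cells (limma). Of all genes tested, 49.6% were higher in KO at 6 weeks and 52.4% at 12 weeks, and 0.0429% and 0.368% passed as higher. The mean of these 18 genes, each centred on its mean over all arrays, ran from −0.09 to 0.69 in KO arrays and from −0.80 to −0.18 in WT arrays at 12 weeks, and from −0.04 to 1.38 in KO and from −0.92 to 0.69 in WT at 6 weeks. Tlr13 differed more than all 18 of these genes at 6 weeks and more than all but 1 of them at 12 weeks. It lay within the range of the homeostatic microglia genes described below. Those reached 2.47 at 6 weeks and 2.38 at 12 weeks, above Tlr13, with medians of 1.59 and 1.38, below it. Tlr7 differed more than 11 of the 18 pan-myeloid genes at 6 weeks and than 17 at 12 weeks. Tlr3 and Tlr4 sat lower, with 13 and 12 of the 18 genes above them at 6 weeks and 12 and 13 at 12 weeks. Tlr2 had 16 above it at either stage, Cd14 had 17 and 16, Tlr9 had 16 and 17, and Myd88 had 18 and 13. Whether the members differ among themselves in their shift was not tested, nor was the part of myeloid cell number in any of these differences.

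**Figure D4:**
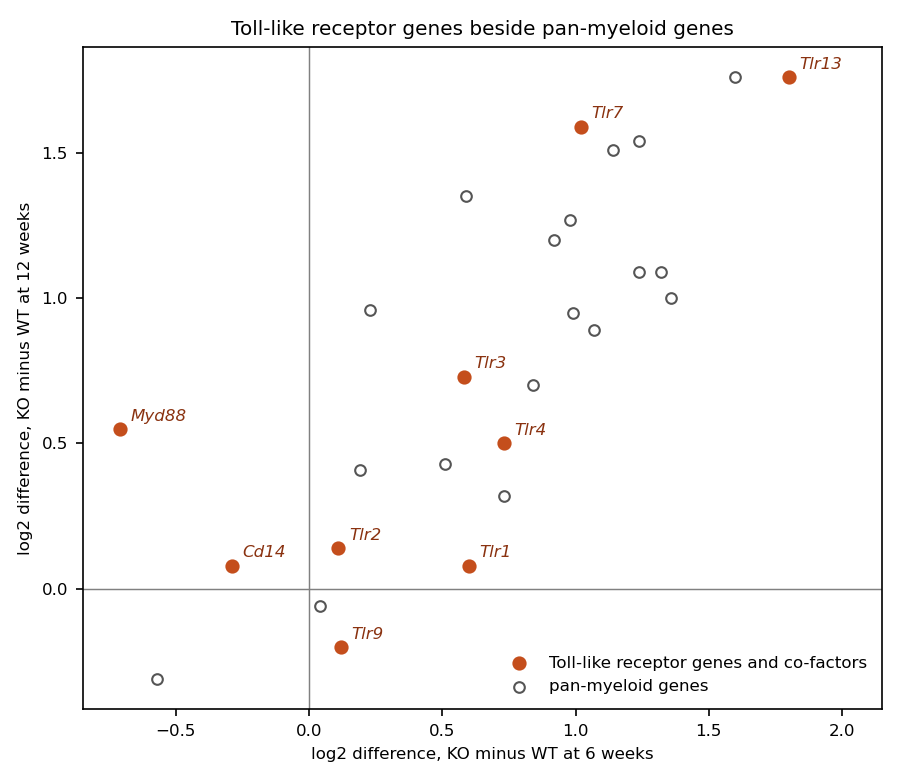
Log2 difference of KO from WT at 6 weeks (x axis) and at 12 weeks (y axis) for the 9 members tested (filled, named) and the 18 pan-myeloid genes tested (open). Tlr13 lies at the upper right end of the pan-myeloid genes, and Cd14, Tlr2 and Tlr9 lie near 0 on both axes.

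With the myeloid score of each array as a covariate, which takes out whatever goes with it, the differences of all 9 members were lower than without it at both stages. That direction was fixed beforehand, since every member rose with the score within groups and the mean score was higher in KO at both stages. Tlr13 had a difference of 0.99 ± 0.49 at 6 weeks and 0.85 ± 0.43 at 12 weeks (adjusted p = 1 and 0.622, limma). Myd88 had the largest difference at 6 weeks, −1.31 ± 0.37 (adjusted p = 0.436, limma), and was at −0.12 ± 0.33 at 12 weeks. Tlr7 was at −0.39 ± 0.42 and 0.02 ± 0.37, Tlr4 at −0.03 ± 0.29 and −0.35 ± 0.26, Tlr3 at 0.25 ± 0.31 and 0.35 ± 0.27, and Tlr9 at −0.17 ± 0.40 and −0.53 ± 0.35. Cd14 was at −1.14 ± 0.29 (adjusted p = 0.232, limma) and −0.87 ± 0.25 (adjusted p = 0.245), Tlr2 at −0.57 ± 0.29 and −0.62 ± 0.26, and Tlr1 at −0.31 ± 0.44 and −0.93 ± 0.39, which are differences at the same myeloid score. None of the 9 members passed in this fit. The score follows genotype, above all at 12 weeks, so the covariate and the genotype share much of what they account for.

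**Figure D5:**
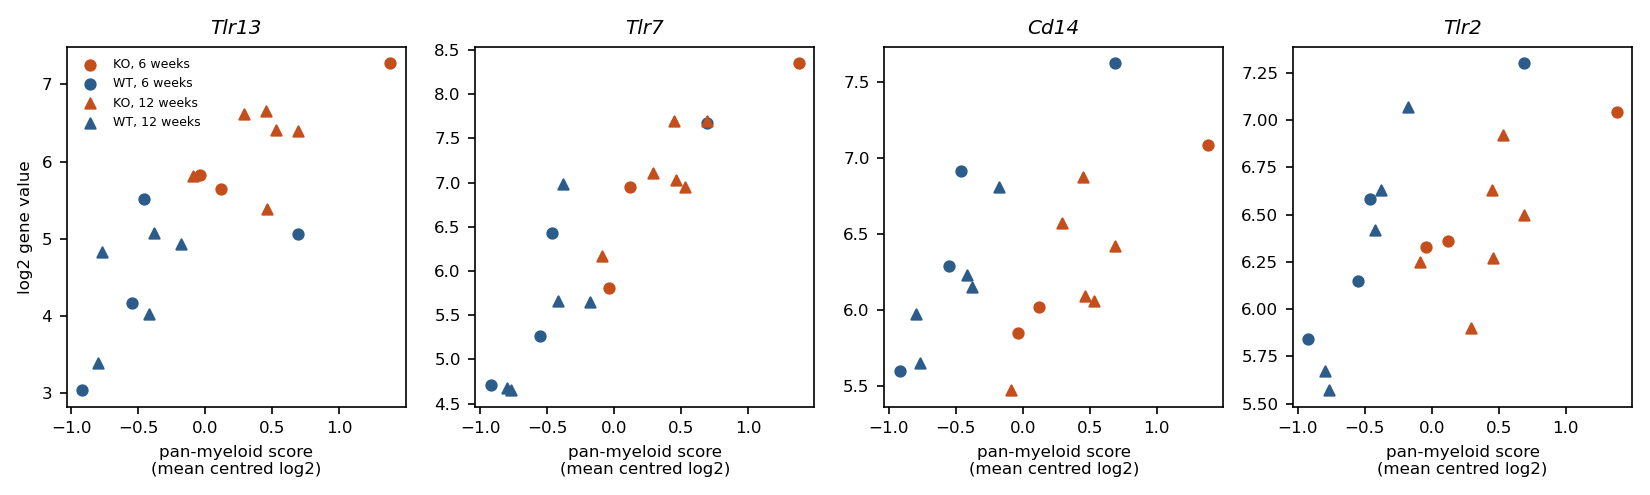
Log2 values of Tlr13, Tlr7, Cd14 and Tlr2 in the 18 arrays (y axis) against the array's pan-myeloid score (x axis, mean of centred log2 values), with colour for genotype and shape for stage. At the score of 0.69, a KO array of 12 weeks and a WT array of 6 weeks have values of 6.39 and 5.06 for Tlr13, and of 6.42 and 7.62 for Cd14. These are single arrays that differ in stage as well as genotype, so they do not show a genotype difference at equal score. That WT array has the highest Cd14 value of the 18.

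Array by array, most pairs of members varied in the same direction, to very different extents. After each gene was centred on its group mean, 44 of 45 pairs of the 10 members had a correlation above 0 over the 18 arrays, with a median of 0.47 and a highest of 0.83 for Tlr7 with Cd14. The lowest was −0.36, for Tlr3 with Tlr9. The share above 0 among pairs of other genes was not computed. Against the myeloid score, centred in the same way, Pearson's r was 0.86 for both Tlr7 and Cd14, 0.82 for Tlr4, 0.79 for Tlr2, 0.72 for Tlr1, 0.65 for Myd88, 0.63 for Tlr13, 0.51 for Tlr3, 0.42 for Tlr6 and 0.34 for Tlr9. Scores of other cells made in the same way followed some members as closely or more so. The homeostatic microglia score gave 0.80 for Tlr4, 0.78 for Tlr1, 0.71 for Myd88 and 0.60 for Tlr3, the astrocyte score gave 0.79 for Tlr4 and 0.74 for Tlr1, and the neuron score gave −0.72 for Tlr3 and −0.59 for Tlr1. Spearman's rho with the myeloid score for Tlr7 and Cd14 was 0.84 and 0.83. Without the 2 arrays whose score lay farthest from the mean of their group, KO replicate 2 and WT replicate 3 of 6 weeks, r stayed at 0.78 for both and was 0.17 for Tlr3. The points share arrays, RNA quality and amount of tissue, so these values are descriptions. Clone and predicted gene names were passed over when the genes with the most similar centred values were sought. Those most like Cd14 were Cd53, Fcer1g and C3ar1 (r = 0.93, 0.93 and 0.91), and those most like Tlr2 were Cybb, Fcer1g and Pcdhgb4 (0.92, 0.87 and 0.84). For Tlr7 they were Snx5, Il6ra and Fcrls (0.92, 0.92 and 0.91), for Tlr4 Rab13, Cyp4v3 and Cav1 (0.92, 0.91 and 0.90), for Tlr3 Kiz, Nek9 and Chmp1b (0.88, 0.86 and 0.85), and for Tlr13 Commd8, Dctn4 and Il1a (0.83, 0.83 and 0.82). Tlr1 had Fcgr2b, Git2 and Txndc5 (0.92, 0.88 and 0.86), and Tlr9 had Aqp2, Cyp4f39 and Tgfbr2 (0.88, 0.86 and 0.85). Myd88 had Ptpn9, Flnc and Cadm4 (0.83, 0.82 and 0.82), and Tlr6 had Tmem140, Igsf10 and Zfp457 (0.89, 0.82 and 0.81). Each is the highest of many correlations, and the level reached by chance was not computed.

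Markers of other cells that can carry these receptors moved to different extents. Genes of homeostatic microglia had median differences of 1.59 at 6 weeks and 1.38 at 12 weeks, and of 13 tested 4 and 8 passed in the higher direction, where 0.0429% and 0.368% of all genes did, P2ry12 and Siglech among them at both stages, while Trem2, also on the list, passed as lower at 12 weeks. Astrocyte genes had medians of 0.51 and 0.54, and of 11 tested Slc4a4, a bicarbonate transporter gene, passed at 12 weeks (1.01). Of 12 genes of monocytes and border macrophages 9 were tested, with medians of 0.60 and 0.25, and Stab1, a scavenger receptor, passed at 12 weeks (1.00). Ccr2, which defines blood monocytes, lay under the filter level with a mean of 2.87. Of dendritic cell genes 7 were tested, with medians of 0.23 and −0.07, and Bst2, which interferon also induces in other cells, passed at 12 weeks (1.38). Neutrophil and lymphocyte genes had medians of 0.24 and 0.33 at 6 weeks and −0.12 and −0.11 at 12 weeks, with 0 passing of 6 tested in each list (limma). Of mature oligodendrocyte and myelin genes 10 were tested. All 10 had lower means in KO at 6 weeks (median −0.66), and 7 had higher means at 12 weeks (median 0.25). All 9 neuron genes tested had lower means in KO at 6 weeks (median −0.25), and 6 did at 12 weeks (median −0.07). Choroid plexus and ependyma genes, 10 tested, had medians of −0.16 and 0.98, and endothelial genes, 9 tested, 0.24 and 0.30. In these 4 lists 0 genes passed at either stage (limma). What part any of these cells had in the members' values was not tested.

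Genes that serve the receptors were taken by role. Of 10 co-receptors and chaperones, a list that includes Cd14, 9 were tested and 0 passed at either stage (limma). By unadjusted p under 0.05 there were 2 of 9 at 6 weeks and 4 of 9 at 12 weeks, against 5.44% and 11.1% of all genes. Cd180 and Ly86, whose products form a complex related to that of TLR4, differed by 0.91 and 1.24 at 6 weeks and by 1.09 each at 12 weeks (adjusted p = 0.164 and 0.157 at the later stage); Ly86 is also in the myeloid list. Unc93b1, the chaperone that carries TLR3, TLR7, TLR9 and TLR13 to endosomes, differed by 0.39 at 6 weeks and by 0.90 ± 0.30 at 12 weeks (adjusted p = 0.237). Lbp, the lipopolysaccharide binding protein, differed by −0.43 and 1.46 (adjusted p = 0.375 at 12 weeks).

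Of 17 adaptors and proximal kinases, Myd88 included, 16 were tested and 0 passed, with medians of 0.17 and 0.04 at 6 and 12 weeks (limma). None had an unadjusted p under 0.05 at 6 weeks, and 4 of 16 did at 12 weeks, against 11.1% of all genes. They were Btk (0.79), Ticam1 (0.68), the adaptor of TLR3, the kinase gene Irak2 (0.47) and Tab1 (−0.41), a partner of the kinase TAK1. All 14 transcription factors and their kinases were tested and 0 passed, with medians of 0.03 and 0.08 (limma). At each stage 1 of the 14 had an unadjusted p under 0.05, against 5.44% of all genes at 6 weeks and 11.1% at 12 weeks. Those were Fos at 6 weeks (1.60 ± 0.37, adjusted p = 0.224) and Jun at 12 weeks (0.95 ± 0.23, adjusted p = 0.073), whose products form AP-1.

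Negative regulators and inducible targets each had 1 gene that passed, where 0.0429% of all genes passed at 6 weeks and 0.441% at 12 weeks. Of 14 negative regulators 13 were tested, with medians of 0.07 at 6 weeks and −0.13 at 12 weeks. Zfp36, which promotes decay of cytokine mRNAs, was higher in KO at 6 weeks by 1.18 ± 0.20 (adjusted p = 0.03) and at 0.07 ± 0.16 at 12 weeks (adjusted p = 0.893, limma). Of 20 inducible targets 15 were tested, with medians of 0.21 at 6 weeks and −0.17 at 12 weeks, and Il6, Il12b, Il10, Cxcl2 and Ifnb1 lay under the filter level. Cxcl10, a chemokine induced by interferon and by TLR3 and TLR4 ligands, was higher in KO at 12 weeks by 1.69 ± 0.34 (adjusted p = 0.0347) and at 0.81 ± 0.43 at 6 weeks (adjusted p = 0.94, limma). The other 14 targets tested did not pass at either stage. By unadjusted p under 0.05 there were 3 of 15 targets at each stage (limma), against 5.44% and 11.1% of all genes. They were Ccl5 (0.78), Tnf (0.62) and Lcn2 (−1.22) at 6 weeks, and Cxcl10, Ccl5 (0.49) and Il1b (−0.66) at 12 weeks. Of the 13 negative regulators 2 were counted at 6 weeks, Zfp36 and Dusp1 (1.75), and 1 at 12 weeks, Socs1 (−0.46).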

How the data were processed

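RNA of the 18 samples was purified on columns, amplified with a kit for small amounts of RNA and biotinylated, per the labels' protocols. The authors' deposited values are log2 probe-set signals, 241576 probe sets from 0.732 to 13.674. The sources used here do not give how background, normalization and probe summaries were made. The medians of the arrays lay between 5.26 and 5.41, and the deposited log2 values were used unchanged. No background level was available, and the number of arrays limits the precision. Probe sets with 1 gene symbol (212097; 4475 had several and 25004 none) were joined to genes by their median per array, and 2688 old symbols were updated through the RefSeq gene table of GRCm38.p6, in which 107 were not found.

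One limma fit (version 3.58.1, R 4.3.3) of 4 group means over all 18 arrays gave KO against WT at each stage, 12 against 6 weeks in each genotype, and their interaction, two-sided, with Benjamini-Hochberg adjustment over 16324 genes and a threshold of 0.05. "Passed" refers to this test. It was tested on simulated data first. The contrast averaged over both stages was added after seeing the data. The members, the pathway and marker lists and the tests were chosen with earlier results of these data known, which includes the 2 arrays that stood apart. All members are named. Of each pathway list the genes that passed, or else up to 4 with the smallest p, are named, and up to 3 of each marker list. Negative regulators and inducible targets with an unadjusted p under 0.05 are named as well. Alternatives covered the filter, array weights, quantile normalization, which probe sets stand for a gene, the estimate of spread, sex, the replicate block, a myeloid score, the arrays in the fit and leaving out each array. Same-numbered KO and WT arrays correlated from −0.36 to 0.24 at 6 weeks and from 0.02 to 0.10 at 12 weeks, so the numbers were not taken to pair them. Tables and plots were made in Python 3.11.15 with pandas 2.3.3, numpy 2.4.6 and matplotlib 3.10.9.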

Additional observations from a re-analysis of the deposited data

Results flagged for a closer look

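Tlr9 in WT replicate 3 of 12 weeks, at 4.79, lay far below the other 4 arrays of its group, which ran from 5.90 to 6.29. By Dixon's criterion chance flags about 1 in 20 groups, and 30 groups of 4 to 6 arrays were examined, of which this 1 was marked.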

How the results depend on the processing

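Of 628 recomputed differences of single members, 587 kept their sign and their side of the threshold, 31 changed sign, 7 newly passed and 3 lost a call. Part of this tally was fixed beforehand. Leaving out an array of a group that a comparison does not use cannot change its difference. Nor can a change of only the filter or the estimate of spread, or a fit of only the 2 groups compared. Such fits can alter the adjusted p. Why a value moved was not tested. The number of members passing at 12 weeks, 0 in the report, was 1 (Tlr13) with the mean of the probe sets, with array weights and without the 2 arrays that stood apart, and 2 (Tlr7 and Tlr13) with only the 2 groups compared. Averaged over both stages it was 0 without those 2 arrays and 0 with the pan-myeloid score as a covariate, against 1. With that covariate the median over the members was −0.31 at 6 weeks, −0.35 at 12 weeks and −0.35 averaged. Tlr13 averaged was then 0.92 (adjusted p = 0.661, limma). At 6 weeks the covariate gave −0.31 for Tlr1, −0.57 for Tlr2, −0.03 for Tlr4, −0.39 for Tlr7 and −0.17 for Tlr9. At 12 weeks it gave −0.93 for Tlr1, −0.62 for Tlr2, −0.35 for Tlr4, −0.87 for Cd14 and −0.12 for Myd88. Without the 2 arrays that stood apart the median at 6 weeks was −0.08 and that of the interaction 0.53, and Tlr1, Tlr2 and Tlr7 at 6 weeks were at −0.26, −0.33 and −0.08. Tlr2 at 6 weeks was at 0.00 with the mean of its probe sets (just under 0), −0.44 with the brightest probe set and −0.08 with array weights. The brightest probe set gave 0.26 for Myd88 at 6 weeks and 0.21 for Myd88 between stages in WT. With the replicate block 0 members passed in each of the planned comparisons, Tlr13 at 12 weeks was at 1.73 (adjusted p = 0.153, limma), Tlr1 at 12 weeks was at −0.02, and the averaged contrast kept 1. At 6 weeks 1 of 3 KO arrays correlated best with the WT array of its own number, and at 12 weeks 4 of 5 did, which is a hint from the data and not the design.

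Leaving out each array in turn, the median over the members ran from 0.07 to 0.76 at 6 weeks, from 0.36 to 0.56 at 12 weeks, from −0.40 to 0.06 between stages in WT, from −0.30 to 0.30 in KO, from −0.24 to 0.48 for the interaction and from 0.01 to 0.73 averaged. Members passing ran from 0 to 1 at 12 weeks and averaged, and were 0 throughout otherwise. At 6 weeks Tlr1 ran from −0.24 to 1.37, Tlr2 from −0.12 to 0.39, Tlr3 from 0.18 to 0.82, Tlr4 from 0.35 to 1.18, Tlr7 from 0.36 to 1.63, Myd88 from −1.17 to −0.11, Tlr9 from −0.10 to 0.28, Cd14 from −0.67 to 0.05, and Tlr13 from 1.29 to 2.16. At 12 weeks Tlr1 ran from −0.03 to 0.25, Tlr2 from −0.04 to 0.34, Tlr9 from −0.46 to −0.05, Cd14 from −0.05 to 0.24, and Tlr13 from 1.50 to 1.93 (adjusted p from 0.0223 to 0.198). Tlr13 averaged ran from 1.52 to 1.96. Of 974 other stage, interaction and averaged values of members, 101 changed sign and 0 passed. Here too, part of the fits could not change the difference.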
